A study of Mus musculus with 20 samples.

Results

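The p53 target genes described here are 31 genes that the transcription factor p53 is known to activate in mouse or human cells, among them Cdkn1a, Mdm2, Bax, Bbc3 and Ccng1. They were chosen by symbol from the count tables of thymic group 2 innate lymphoid cells (ILC2), lymphocytes that respond to the tuft cell cytokine IL-25. The table of the treatment experiment lists 26 of the 31 among its 9973 genes, and the table of the Il25 knockout experiment lists 30 of the 31 among its 10706 genes. The treatment experiment used young females of the wild type, with 3 libraries in each of 4 groups. The first group was untreated, the next had a sublethal dose of 425 rad, the next received 0.3 µg rIL-25 (recombinant IL-25) by intrathymic injection, and the last had the dose and the injection, here called both; ILC2 were collected at 3 days. Since there was no injection-only group, the injection and rIL-25 cannot be told apart. The knockout experiment compared irradiated Il25 wild-type (Il25 WT) and Il25 knockout (Il25 KO) male mice, 4 libraries each, with no unirradiated group. Both genotypes had the same dose of 425 rad, and their ILC2 were also collected at 3 days. The labels give neither the sorting gate nor the kind of Il25 deletion, and they do not say whether replicates were separate animals, so p-values measure only the spread between these samples.

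p53 is held at a low level by Mdm2, an enzyme that marks it for degradation, and DNA breaks release it through the kinases Atm and Chek2. It then activates genes that stop the cell cycle (Cdkn1a, which encodes the kinase inhibitor p21), genes that open the mitochondrial route to cell death (Bax, Bbc3 and Pmaip1), genes of DNA repair (Xpc, Ddb2) and genes that limit oxidative stress (Sesn1, Sesn2). It also activates Mdm2 and Ccng1, which act back on p53. Thymocytes are known for a strong p53-dependent death response to irradiation.

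p53 binds DNA at pairs of a short element, the p53 half-site, which reads the same on both strands. The stretches below are shown because they hold the element in genes that the results turn on. Each has 100 bases upstream of a RefSeq start site (GRCm38.p6), written 5′ to 3′ on the gene's strand. Capitals mark exact half-sites and the pair with the fewest mismatches. Positions are counted from the start site, which is 0. Bax (chr7:45467040-45467139, minus strand) holds an exact half-site at -201 and a second one after a spacer of 1 base, with 2 mismatches in the pair. Ccng1 (chr11:40755422-40755521, minus strand) holds an adjoining pair at -195 with 1 mismatch. Cdkn1a (chr17:29090866-29090965, plus strand) holds exact half-sites at -73 and -51 before the first of its start sites, which lies 2790 bases upstream of the other. The 10 bases right after the half-site at -51 match the element with 1 mismatch. They form an adjoining pair with it and are left in small letters. Mdm2 (chr10:117710885-117710984, minus strand) holds 1 exact half-site at -186.
Bax: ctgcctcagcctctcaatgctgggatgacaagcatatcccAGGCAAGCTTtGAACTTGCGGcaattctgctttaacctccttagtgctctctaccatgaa
Ccng1: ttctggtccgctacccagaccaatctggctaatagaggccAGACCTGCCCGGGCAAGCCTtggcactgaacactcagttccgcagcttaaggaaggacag
Cdkn1a: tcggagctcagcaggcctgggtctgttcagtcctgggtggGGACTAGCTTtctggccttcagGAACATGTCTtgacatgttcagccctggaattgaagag
Mdm2: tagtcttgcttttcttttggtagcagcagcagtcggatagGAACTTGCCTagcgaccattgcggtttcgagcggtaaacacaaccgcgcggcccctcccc

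Windows from 250 bases before to 50 bases after the start site were matched for 22 of the 31 genes. An exact half-site stood in 10 of these 22 (45.5%), compared with 9.55% of all 27025 genes in the RefSeq set. A pair of half-sites with at most 3 mismatches and a spacer of at most 13 bases stood in 12 of the 22 (54.5%), compared with 17.4% of all genes. A match is a run of letters and not a measured site of binding.

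**Figure D1:**
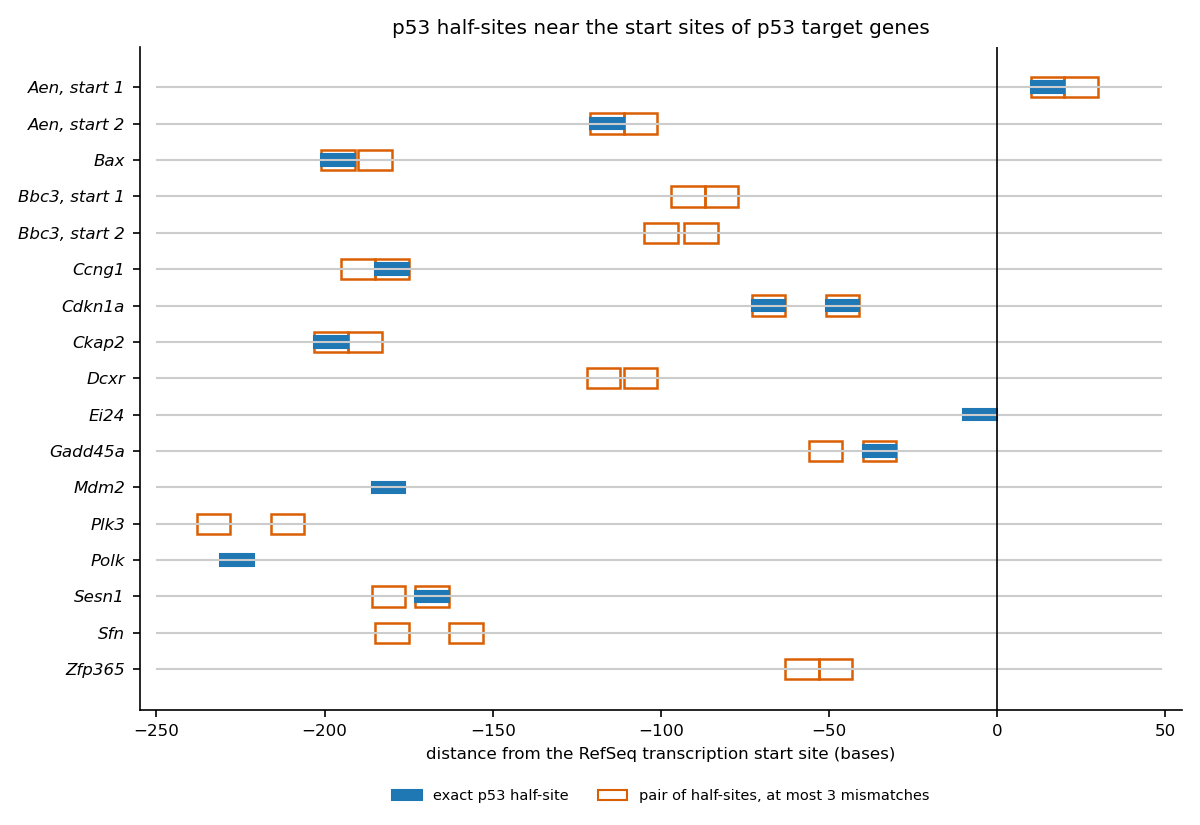
Distance of p53 half-sites from the RefSeq start site (x axis, bases) for each start site of a p53 target gene that holds one (rows). Filled boxes are exact half-sites and open boxes are the best pair of each start site, with at most 3 mismatches. Exact half-sites were found in 10 of 22 genes and pairs in 12 of 22.

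Libraries held 495079 to 1460702 counts in the treatment experiment and 2093288 to 4420831 in the knockout experiment. Levels are CPM, counts brought to a common library size, after trimmed mean of M-values (TMM) scaling, and 3 counts correspond to 2.03 to 6.69 CPM in the treatment libraries and to 0.614 to 1.57 CPM in the knockout libraries. The ILC2 genes Gata3, at 211 ± 23.5 CPM (SD, n = 3), and Il17rb, at 202 ± 6.48 CPM, were present in untreated libraries, whereas Il1rl1 and Klrg1 had means of 1.21 and 1.31 CPM there. Dntt, an enzyme of developing lymphocytes, stood at 2153 ± 189 CPM in untreated and 966 ± 64.2 CPM in irradiated libraries. The summed level of 12 listed T cell and thymocyte markers was 3534 to 4073 CPM in untreated and 3394 to 3842 CPM in irradiated libraries, and 3 of 9 tested rose and 2 fell. Over all genes tested, 2.22% were called higher and 1.8% lower in irradiated against untreated libraries. The T cell receptor constant genes are not among the genes used here. The 2 listed mast cell and progenitor markers, Cpa3 and Kit, summed to 311 to 465 CPM untreated, 49 to 105 CPM irradiated, 333 to 492 CPM after rIL-25 and 31.5 to 90.0 CPM after both. The 13 listed ILC2 markers summed to 2195 to 2734 CPM untreated and 3702 to 5047 CPM irradiated. The 8 listed myeloid markers reached 1803 CPM in 1 rIL-25 library and lay between 302 and 470 CPM in the other 11. The 2 listed NK cell and ILC1 markers in the table summed to 306 to 412 CPM untreated, 832 to 1165 CPM irradiated, 209 to 362 CPM after rIL-25 and 512 to 924 CPM after both, and the 1 tested, Gzma, rose with irradiation. These markers moved with the groups, and their part in the values below was not tested; in bulk libraries, fewer cells of a type and less RNA per cell cannot be told apart.

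Irradiation was examined in 3 ways: alone (irradiated against untreated), on top of rIL-25 (both against rIL-25), and averaged over these. Among the p53 target genes, Bax and Psrc1 rose with irradiation in the averaged comparison, and Xpc, Ddb2 and Sesn1 fell. Cdkn1a and Mdm2 were not called. Bbc3, Phlda3 and 9030617O03Rik were also called higher, but they entered the test only through their levels in irradiated groups. Of the 26 genes in the table, 18 passed the filter on low counts and entered the edgeR quasi-likelihood test, with Benjamini-Hochberg adjustment over all 7482 genes tested and calls at an adjusted p under 0.05. The averaged comparison called 8 of the 18 (5 higher, 3 lower), where 15.6% of all tested genes were called (7.66% higher, 7.91% lower). Irradiation alone called 7 (5 higher, 2 lower), where 4.02% of all genes were called (2.22% higher, 1.8% lower). Irradiation on top of rIL-25 called 4 (3 higher, 1 lower), where 15.3% of all genes were called (6.51% higher, 8.75% lower). Bbc3, Phlda3 and 9030617O03Rik passed the filter only through irradiated groups, and Plk3 only through the group given both. These counts therefore describe the tested genes and not the whole set, and nothing is read from them beside the shares of all genes. The median log2 change of the 18 was 0.04 alone and 0.23 on top of rIL-25, beside 0.02 and -0.01 over all genes tested. The count for irradiation alone was 4 without untreated replicate 1 and 3 when irradiated replicate 1, or untreated replicate 2 or 3, was left out. The count on top of rIL-25 was 2 without rIL-25 replicate 1 and 1 without both replicate 3.

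Separation of the libraries was counted over the 26 genes in the table with no filter, and its background over the 7482 genes tested. Irradiated libraries lay wholly above untreated ones for 8 of the 26 and wholly below for 5, where 11.9% and 10.9% of all genes did. Both against rIL-25 gave 9 above and 5 below (15.9% and 17.4% of all genes), and both against untreated gave 10 above and 4 below (13.5% and 13.5%). Both against irradiated gave 5 above and 4 below (9.18% and 10.3%), and rIL-25 against untreated gave 0 above and 2 below (5.57% and 4.38%).

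**Figure D2:**
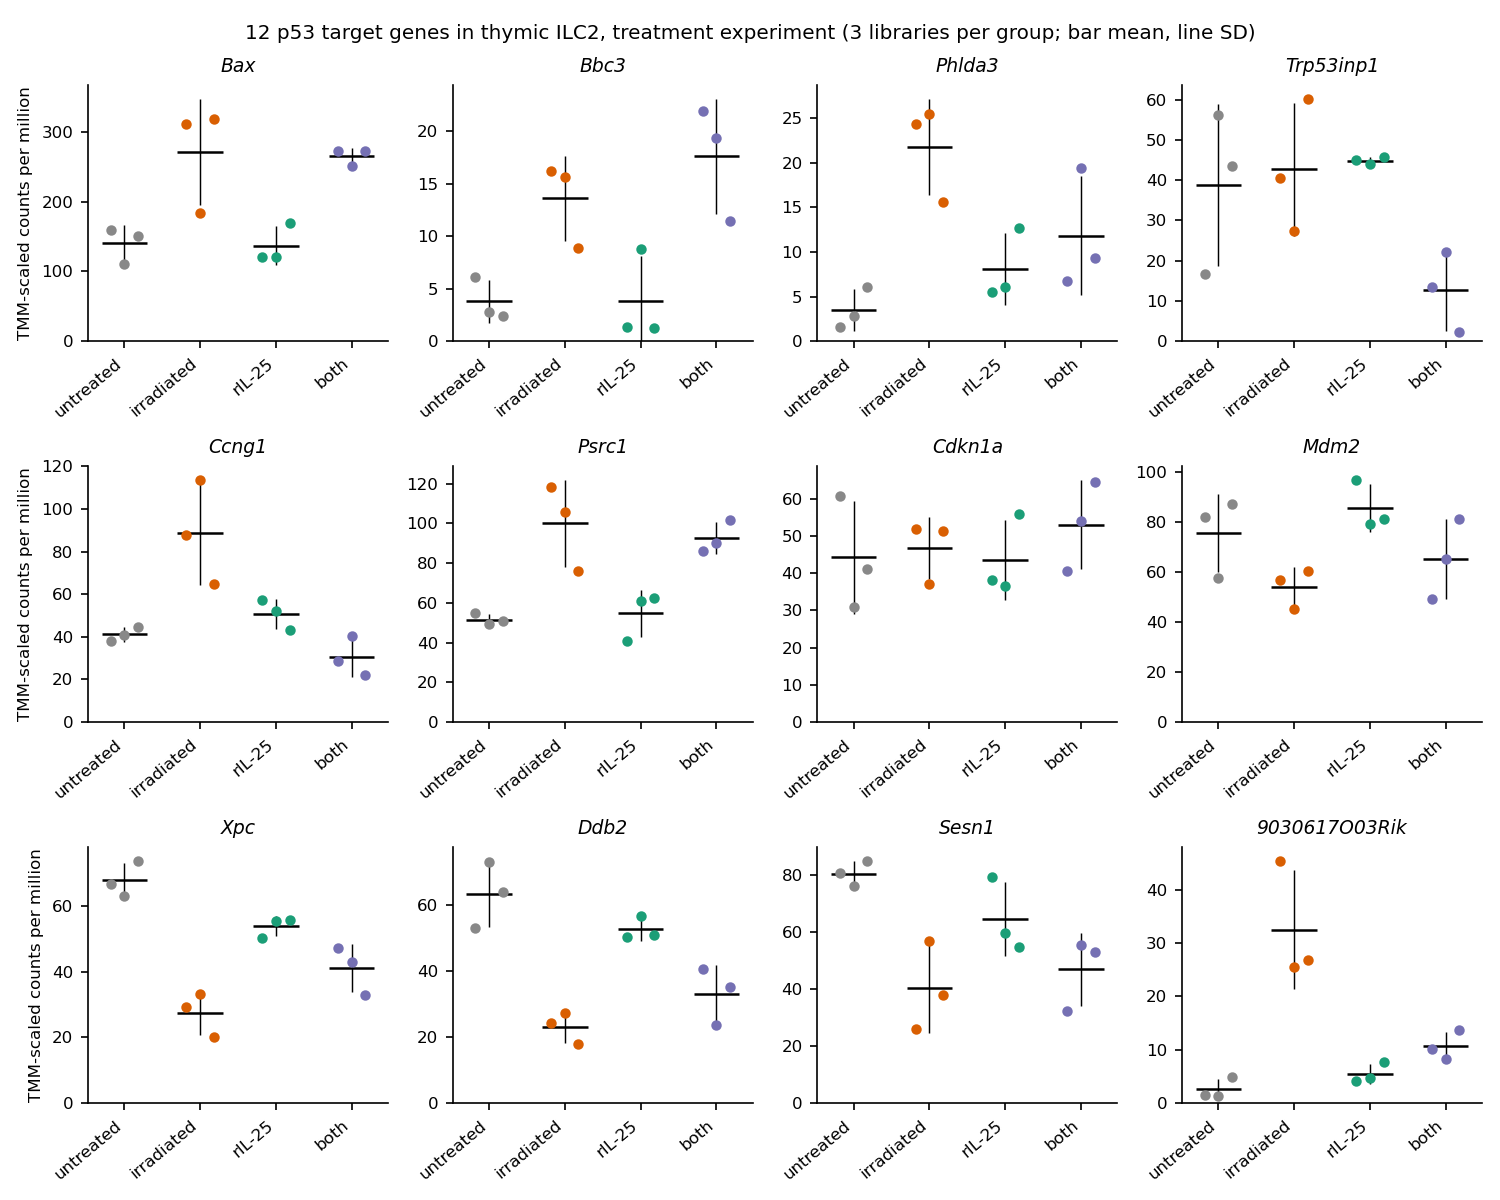
Level of 12 p53 target genes (y axis, TMM-scaled CPM, from 0) in untreated, irradiated, rIL-25 and both libraries (x axis), 1 point per library, with the mean (bar) and SD (line) of 3. Bax lies between 184 and 319 CPM in the 6 irradiated libraries and between 111 and 169 CPM in the other 6, and Ccng1 is high in the irradiated group alone.

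Among the genes that promote cell death, the pore-forming protein gene Bax showed the same change in both settings. Bax was at 160, 111 and 151 CPM in untreated libraries, 311, 184 and 319 CPM in irradiated, 120, 121 and 169 CPM after rIL-25, and 272, 251 and 272 CPM after both. All 6 irradiated libraries lay above all 6 others. The rise was 0.95 ± 0.22 on the log2 scale (SE, adjusted p = 0.0169, edgeR) with irradiation alone, 0.96 ± 0.22 (adjusted p = 0.00523) on top of rIL-25, and 0.95 ± 0.16 (adjusted p = 0.000282) averaged. The call with irradiation alone was lost without untreated replicate 2 or 3 or irradiated replicate 1 or 3 (edgeR adjusted p from 0.0616 to 0.109), and the averaged call held without any 1 of the 12 libraries (adjusted p up to 0.00158).

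Bbc3 encodes PUMA, which releases Bax from its inhibitors. Bbc3 passed the filter only through irradiated groups. It was counted 4, 2 and 2 times in untreated, 10, 8 and 4 times in irradiated, 1, 13 and 1 times in rIL-25, and 13, 14 and 16 times in both libraries, so it rests on few counts. Its levels were 6.08, 2.81 and 2.42 CPM untreated, 16.2, 15.7 and 8.92 CPM irradiated, 1.36, 8.79 and 1.27 CPM after rIL-25, and 22.0, 19.4 and 11.5 CPM after both. Every irradiated library exceeded every unirradiated one, the nearest being 8.92 against 8.79 CPM. The averaged rise was 1.85 ± 0.45 on the log2 scale (edgeR adjusted p = 0.00744). Separately the change was 1.87 ± 0.69 alone (adjusted p = 0.132) and 1.83 ± 0.57 on top of rIL-25 (adjusted p = 0.0335), the latter lost without rIL-25 replicate 1 or 3 or any replicate of both (adjusted p from 0.0513 to 0.133).

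Phlda3, which restrains the survival kinase Akt, had 1, 2 and 5 counts in untreated and 15, 13 and 7 counts in irradiated libraries. Phlda3 passed the filter only through irradiated groups. In CPM it was at 1.52, 2.81 and 6.05 untreated, 24.3, 25.4 and 15.6 irradiated, 5.45, 6.08 and 12.7 with rIL-25, and 6.76, 19.4 and 9.32 with both treatments. Irradiated libraries lay above untreated ones without overlap, while the rIL-25 and both groups overlapped. Phlda3 rose by 2.56 ± 0.60 on the log2 scale with irradiation alone (edgeR adjusted p = 0.0168, lost without untreated replicate 1 or 2 or irradiated replicate 1, with adjusted p from 0.056 to 0.095) and by 1.56 ± 0.40 averaged (adjusted p = 0.0111). On top of rIL-25 the change was 0.56 ± 0.52 (adjusted p = 0.495), and the difference between the settings was -1.99 ± 0.82 (interaction, adjusted p = 0.208).

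Trp53inp1, a stress-induced nuclear protein that assists p53, fell where both treatments were given. It was at 16.7, 56.2 and 43.6 CPM in untreated, 40.5, 27.4 and 60.2 CPM in irradiated, 45, 43.9 and 45.8 CPM in rIL-25, and 13.5, 22.2 and 2.15 CPM in both libraries. The both group lay below the irradiated and rIL-25 groups and overlapped the untreated group. The fall was 2.02 on the log2 scale against rIL-25 (SE 0.51, edgeR adjusted p = 0.00974), reduced to 1.29 without both replicate 3, the lowest library (adjusted p = 0.0801). Against irradiation alone the change was -1.94 ± 0.53 (adjusted p = 0.0547, edgeR), and the interaction was -2.13 ± 0.69 (adjusted p = 0.111). Ei24, a death-associated protein of the endoplasmic reticulum, had group means between 26.4 and 29.9 CPM and was called in no comparison.

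Among the genes of arrest and feedback, Cdkn1a and Mdm2 stand for the best-known responses. Cdkn1a was at 60.8, 30.9 and 41.1 CPM in untreated, 51.9, 37.2 and 51.3 CPM in irradiated, 38.2, 36.5 and 55.9 CPM in rIL-25, and 40.5, 54.0 and 64.5 CPM in both libraries. The groups overlapped, and irradiation alone gave 0.09 ± 0.30 on the log2 scale (edgeR adjusted p = 0.913). Mdm2 was at 82.0, 57.6 and 87.1 CPM untreated, 56.8, 45 and 60.2 CPM irradiated, 96.8, 79.1 and 81.4 CPM after rIL-25, and 49, 65.1 and 81.0 CPM after both. Its irradiated mean was the lower one in both settings, with overlap in each, and the averaged change was -0.42 ± 0.17 (adjusted p = 0.101, edgeR). At this depth neither change could be told from 0, which does not show that the levels were equal.

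Ccng1, a cyclin that recruits a phosphatase to Mdm2, was the 1 tested p53 target gene with a called difference between irradiation alone and on top of rIL-25. It was at 38.0, 40.7 and 44.8 CPM in untreated, 87.6, 114 and 64.6 CPM in irradiated, 57.2, 52.1 and 43.2 CPM in rIL-25, and 28.7, 40.2 and 22.2 CPM in both libraries. Every irradiated library lay above all others, and every library of both treatments lay below every rIL-25 library. Irradiation alone raised Ccng1 by 1.10 ± 0.27 on the log2 scale (edgeR adjusted p = 0.0219), whereas on top of rIL-25 the change was -0.78 ± 0.28 (adjusted p = 0.059). Both against irradiated gave -1.58 ± 0.28 (adjusted p = 0.00355), a call that held without any 1 library (adjusted p up to 0.0444). The interaction was -1.89 ± 0.39 (adjusted p = 0.0131, edgeR) and was lost without untreated replicate 1 (adjusted p = 0.0651) or both replicate 3 (adjusted p = 0.0575). The call for irradiation alone was lost without any 1 untreated library or irradiated replicate 1 or 2 (adjusted p from 0.056 to 0.0984).

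Ccng1 was the 1 gene of the 18 called in the interaction, where 2.07% of all genes were called, and the 1 gene called between both and irradiated, where 2.51% were. The interactions of 9030617O03Rik (-2.51), Trp53inp1 (-2.13) and Phlda3 (-1.99) were larger in size than that of Ccng1 (-1.89) but were not called. In the averaged comparison the opposite changes of Ccng1 gave 0.16 ± 0.20 (edgeR adjusted p = 0.619).

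Psrc1, a microtubule-binding protein of the mitotic spindle, rose in both settings. It was at 54.7, 49.2 and 50.8 CPM in untreated, 118, 106 and 75.8 CPM in irradiated, 40.9, 60.8 and 62.3 CPM in rIL-25, and 86.2, 90.0 and 102 CPM in both libraries. The 6 irradiated libraries lay above the other 6. The rise was 0.97 ± 0.24 on the log2 scale alone (edgeR adjusted p = 0.0234), 0.75 ± 0.23 on top of rIL-25 (adjusted p = 0.0275) and 0.86 ± 0.16 averaged (adjusted p = 0.00115). The first call was lost without any 1 untreated library or irradiated replicate 1 (adjusted p from 0.0659 to 0.13, edgeR), the second without rIL-25 replicate 1 (adjusted p = 0.137) or both replicate 3 (adjusted p = 0.123), while the averaged call held without any 1 of the 12 libraries.

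The other tested genes of this group were called in no comparison. Plk3, a stress-activated kinase, averaged 6.63 CPM untreated, 6.53 irradiated, 6.18 after rIL-25 and 18.1 after both, with 16.9, 18 and 19.4 CPM in the both libraries and at most 11.1 CPM elsewhere. That gave 1.43 ± 0.50 on the log2 scale against rIL-25 (edgeR adjusted p = 0.0573). Plk3 passed the filter only through the both group, so nothing is read from that value. Btg2, an antiproliferative factor, had group means of 34.2 to 54.9 CPM, Ckap2, a spindle protein, 68.5 to 88.1 CPM, and Sfn, the 14-3-3 sigma protein that holds back mitosis, 8.83 to 26.4 CPM.

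The tested repair genes went the other way. Xpc, the damage sensor of nucleotide excision repair, was at 66.8, 63.2 and 73.8 CPM in untreated, 29.2, 33.3 and 20.1 CPM in irradiated, 50.4, 55.4 and 55.9 CPM in rIL-25, and 47.3, 42.9 and 33.0 CPM in both libraries. Each irradiated group lay below its unirradiated counterpart without overlap. Xpc changed by -1.29 ± 0.27 on the log2 scale alone (edgeR adjusted p = 0.00881, lost without untreated replicate 3 at 0.0519 or irradiated replicate 3 at 0.0576), by -0.43 ± 0.24 on top of rIL-25 (adjusted p = 0.243) and by -0.86 ± 0.18 averaged (adjusted p = 0.00293).

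Ddb2, which binds ultraviolet lesions ahead of Xpc, was at 53.2, 73.1 and 64.1 CPM in untreated, 24.3, 27.4 and 17.8 CPM in irradiated, 50.4, 56.8 and 50.9 CPM in rIL-25, and 40.5, 23.6 and 35.1 CPM in both libraries. All 6 irradiated libraries lay below all 6 others. Ddb2 changed by -1.44 ± 0.29 on the log2 scale alone (edgeR adjusted p = 0.00727) and by -1.06 ± 0.20 averaged (adjusted p = 0.000864), and both calls held without any 1 library. On top of rIL-25 the change was -0.68 ± 0.26 (adjusted p = 0.0781, edgeR), which was not called without any 1 library either. In GENCODE M21 (GRCm38) the last 500 transcript bases of Ddb2 overlap an exon of Acp2 on the other strand, and whether counting used strand is not given in the sources used here. Acp2 had 15, 10, 22 and 15 counts summed over the untreated, irradiated, rIL-25 and both libraries and was not tested.

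Of the genes of metabolism and stress, 9030617O03Rik had the largest rise of the 18 with irradiation alone. RefSeq now names this gene Dglucy, a mitochondrial enzyme of D-glutamate breakdown. It passed the filter only through irradiated groups. It had 1, 1 and 4 counts in untreated and 28, 13 and 12 counts in irradiated libraries. The levels were 1.52, 1.40 and 4.84 CPM untreated, 45.4, 25.4 and 26.8 CPM irradiated, 4.09, 4.73 and 7.63 CPM after rIL-25, and 10.1, 8.31 and 13.6 CPM after both. Irradiated groups lay above their unirradiated counterparts without overlap, and the irradiated libraries above those given both. The rise was 3.53 ± 0.56 on the log2 scale alone (edgeR adjusted p = 0.000828, held without any 1 library) and 2.27 ± 0.38 averaged (adjusted p = 0.000367). On top of rIL-25 it was 1.02 ± 0.51 (adjusted p = 0.181), and the interaction was -2.51 ± 0.80 (adjusted p = 0.105, edgeR).

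Sesn1, a sestrin that lowers oxidative stress and mTOR activity, was at 80.5, 75.9 and 84.7 CPM in untreated, 26.0, 56.8 and 37.9 CPM in irradiated, 79.0, 59.5 and 54.7 CPM in rIL-25, and 32.1, 55.4 and 53 CPM in both libraries. Irradiated libraries lay below untreated ones, while the rIL-25 and both groups overlapped. The averaged change was -0.72 ± 0.20 on the log2 scale (edgeR adjusted p = 0.0158), lost without irradiated replicate 1 (adjusted p = 0.0613) or rIL-25 replicate 1 (adjusted p = 0.0502), and that of irradiation alone was -1.01 ± 0.29 (adjusted p = 0.0502). Dcxr, a xylulose reductase, had group means of 26.0 to 32.4 CPM and was called nowhere.

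The comparisons of irradiation alone and on top of rIL-25 share no library. In them the log2 changes of 13 of the 18 tested genes had the same sign (72.2%), called or not, beside 58.9% of all genes tested. Bbc3, Phlda3 and 9030617O03Rik are among the 13 and passed the filter only through irradiated groups, so nothing is read from that count. Bax and Psrc1 were called higher in both (11.1% of the 18), beside 1.99% of all genes called the same way in both. Btg2, Ccng1, Ckap2, Plk3 and Trp53inp1 had opposite signs, and Ccng1 alone among these had a called difference between the settings. The signs among the 18 were 9 higher and 9 lower with irradiation alone.

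**Figure D3:**
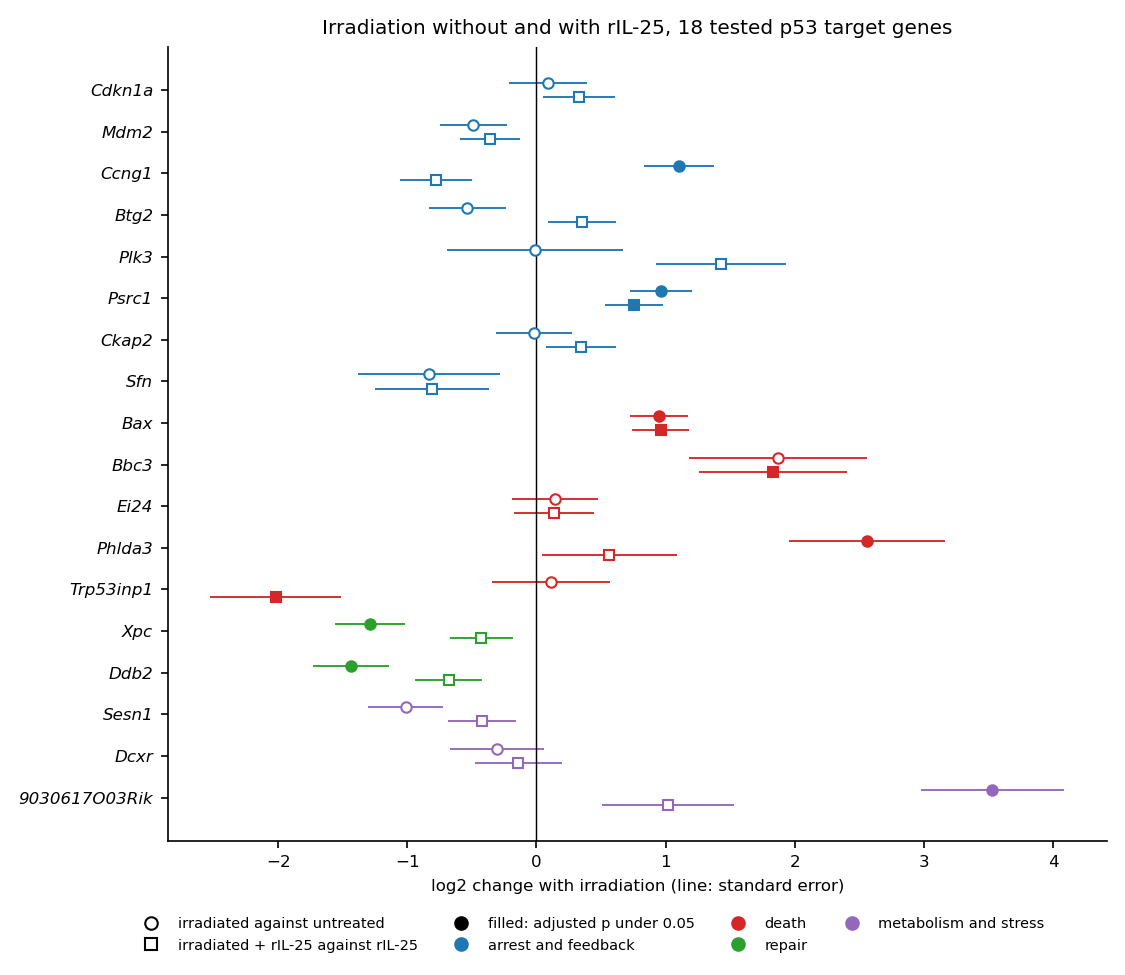
Log2 change with irradiation (x axis, with SE) of the 18 tested p53 target genes (rows, coloured by role), alone (circles) and on top of rIL-25 (squares); filled symbols have an adjusted p under 0.05. Bax and Psrc1 are filled in both, Ccng1 lies at 1.10 and -0.78, and the repair genes Xpc and Ddb2 lie below 0 in both.

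rIL-25 alone moved none of the 18 tested p53 target genes at an adjusted p under 0.05 (edgeR), where 0% of all 7482 genes were called. None was under an unadjusted p of 0.05 either, compared with 336 of all genes, and DESeq2 and limma voom also called 0 of them. The log2 changes ran from -0.33 for Xpc to 1.09 ± 0.65 for Phlda3, with a median of 0.03 beside 0.01 over all genes. Compared with untreated libraries, those given both treatments had 6 of the 18 called (4 higher, 2 lower), where 8.93% of all genes were called (4.22% higher, 4.7% lower). That count was 1 without untreated replicate 2 or both replicate 3 and 2 without untreated replicate 3. These were Bax (0.91 ± 0.22, edgeR adjusted p = 0.0111), Bbc3 (2.16 ± 0.64, adjusted p = 0.0379), Psrc1 (0.85 ± 0.23, adjusted p = 0.0236), 9030617O03Rik (1.97 ± 0.61, adjusted p = 0.045), Trp53inp1 (-1.82 ± 0.52, adjusted p = 0.0304) and Ddb2 (-0.94 ± 0.26, adjusted p = 0.0261). Each of the 6 calls was lost without at least 1 library. Without untreated replicate 2 all 6 were lost, and the 1 call counted there was of another member. Bax was lost without untreated replicate 2 (adjusted p = 0.0683), Psrc1 and Trp53inp1 without untreated replicate 2 or 3 or both replicate 3 (up to 0.195), and Ddb2 without those or both replicate 2 (up to 0.112). Bbc3 was lost without untreated replicate 2 or 3, irradiated replicate 1 or any replicate of both (edgeR adjusted p up to 0.146). 9030617O03Rik held only without untreated replicate 3, irradiated replicate 2 or both replicate 2 (adjusted p up to 0.221 otherwise). This comparison shares its untreated libraries with irradiation alone. Bbc3 and 9030617O03Rik passed the filter only through irradiated groups, so the count of 6 describes the tested genes and not the whole set. Nothing is read from that count beside the share of all genes.

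The genes below the filter in the treatment experiment were Pmaip1, Fas, Zmat3, Perp, Gadd45a, Rrm2b, Polk and Ephx1. Fas, the death receptor, was at 1.52, 1.40 and 3.63 CPM in untreated, 1.62, 11.7 and 4.46 CPM in irradiated, 0, 1.35 and 5.09 CPM in rIL-25, and 3.38, 9.70 and 11.5 CPM in both libraries, from 0 to 16 counts each. The groups overlapped. Zmat3, an RNA-binding regulator of splicing, was at 3.04, 1.40 and 1.21 CPM untreated, 9.73, 13.7 and 4.46 CPM irradiated, 1.36, 2.70 and 1.27 CPM after rIL-25, and 11.8, 19.4 and 13.6 CPM after both. All 6 irradiated Zmat3 libraries lay above the other 6, on 1 to 19 counts. With no filter on low counts Zmat3 was called higher in the averaged comparison (2.57 ± 0.49 on the log2 scale, edgeR adjusted p = 0.000939) and on top of rIL-25 (adjusted p = 0.00395), but not with irradiation alone (adjusted p = 0.102). Gadd45a, an arrest and repair factor, was at 13.7, 12.6 and 19.4 CPM untreated, 1.62, 11.7 and 4.46 CPM irradiated, 6.81, 11.5 and 8.90 CPM after rIL-25, and 3.38, 5.54 and 3.58 CPM after both. Without a filter it was lower averaged (-1.26 ± 0.42, edgeR adjusted p = 0.047).

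Of the remaining low genes, Pmaip1 (NOXA, which like PUMA promotes cell death) had group means of 1.5 to 8.78 CPM. The junction protein Perp had 0 to 3.02 CPM and the ribonucleotide reductase subunit Rrm2b 0.51 to 3.02 CPM. The lesion-bypass polymerase Polk had 7.65 to 13.8 CPM and the epoxide hydrolase Ephx1 1.40 to 8.79 CPM. Perp was at 0 counts in all 3 untreated libraries. These 5 were called in no comparison without a filter. Sesn2, Tnfrsf10b, Aen, Plk2 and Zfp365 are not rows of the treatment table, in which each row reaches at least 6 counts in at least 1 library.

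The knockout experiment asked whether ILC2 of irradiated mice differed with and without a working Il25 gene. Cdkn1a was higher in Il25 KO mice. It was at 382, 358, 357 and 428 CPM in Il25 WT and 524, 566, 540 and 500 CPM in Il25 KO libraries, and the groups did not overlap. Cdkn1a rose by 0.48 ± 0.11 on the log2 scale, 1.40-fold (edgeR adjusted p = 0.0356). It was the 1 gene called of 25 tested, where 1.77% of all 8812 genes tested were called. The call was lost with the replicate number as a block (adjusted p = 0.111) and without any 1 library except Il25 WT replicate 4 (adjusted p from 0.0517 to 0.119, edgeR), over which the log2 change stayed between 0.45 and 0.54.

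The p53 target genes called with irradiation in the treatment experiment were not called between genotypes, and neither was Mdm2, which was not called with irradiation. Bax was at 305, 289, 305 and 226 CPM in Il25 WT and 300, 359, 282 and 384 CPM in Il25 KO libraries (0.23 ± 0.13 on the log2 scale, edgeR adjusted p = 0.533). Ccng1 was at 23.3, 24.3, 30.4 and 26.2 CPM in Il25 WT and 26.5, 35.3, 21.3 and 28.9 CPM in Il25 KO libraries (0.11 ± 0.16, adjusted p = 0.842). Mdm2 was at 36.6, 43.0, 26.6 and 28.1 CPM in Il25 WT and 35.0, 31.0, 36.8 and 33.6 CPM in Il25 KO libraries (0.01 ± 0.16, adjusted p = 0.988). The groups overlapped for all 3. Of the other genes named above, group means in Il25 WT and Il25 KO libraries were 18.6 and 15.8 CPM for Phlda3, 15 and 15.7 CPM for Bbc3, 84.6 and 66.4 CPM for Psrc1, and 20.1 and 18.8 CPM for Xpc. They were 46.7 and 46.8 CPM for Ddb2, 21.9 and 24.0 CPM for Sesn1, and 6.87 and 6.06 CPM for Trp53inp1. The log2 changes of the 25 tested genes ran from -0.51 to 0.71 with a median of 0.01, beside a median of -0.00 over all genes.

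**Figure D4:**
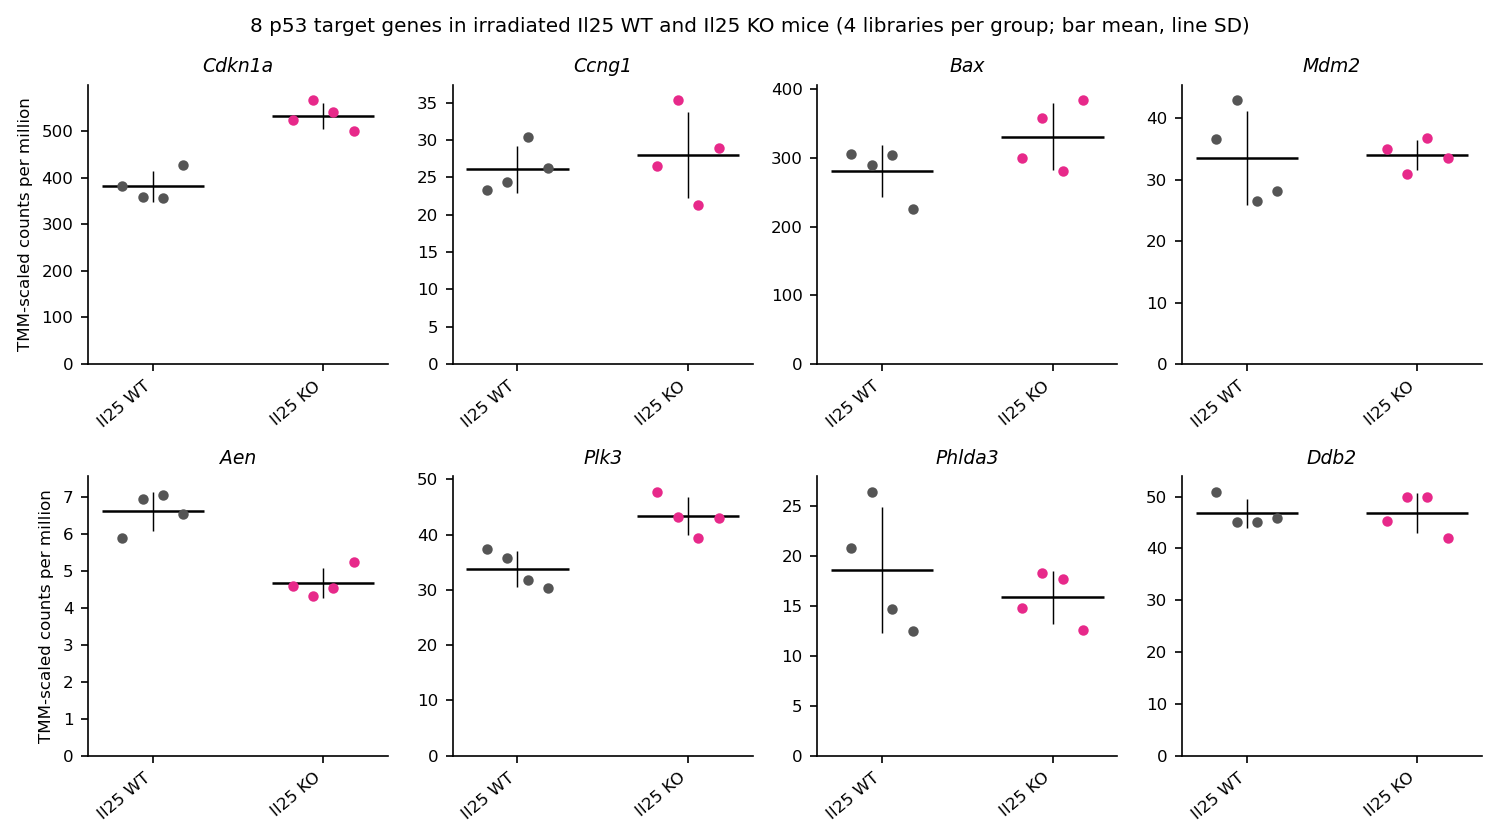
Level of 8 p53 target genes (y axis, TMM-scaled CPM, from 0) in irradiated Il25 WT and Il25 KO libraries (x axis), 1 point per library, with the mean (bar) and SD (line) of 4. Cdkn1a lies between 357 and 428 CPM in Il25 WT and between 500 and 566 CPM in Il25 KO libraries, and Ccng1, Bax, Mdm2, Phlda3 and Ddb2 overlap.

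Aen and Plk3 also had groups that did not overlap, without a call. Aen, a nuclease of apoptosis, was at 5.88 to 7.06 CPM in Il25 WT and 4.33 to 5.25 CPM in Il25 KO libraries (-0.51 ± 0.24 on the log2 scale, edgeR adjusted p = 0.411). Plk3 was at 30.3 to 37.3 CPM and 39.5 to 47.8 CPM (0.36 ± 0.13, adjusted p = 0.245). Together with Cdkn1a this made 2 genes higher and 1 lower without overlap among the 30 in the table, where 4.21% and 2.96% of all tested genes were higher and lower without overlap. These counts are near those shares, so nothing is read from them. Fas was at 2.30, 2.05, 0.543 and 4.37 CPM in Il25 WT and 1.21, 2.33, 3.18 and 2.62 CPM in Il25 KO libraries, with overlap and below the filter. Sesn2, Perp, Rrm2b and Zfp365, a zinc finger gene of genome stability, were also below it, with group means from 0.89 to 2.92 CPM.

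The other tested genes were not called in the knockout experiment. Their Il25 WT and Il25 KO means were 61.8 and 79.6 CPM for Btg2, 49.7 and 40.8 CPM for Ckap2, 41.9 and 41.0 CPM for Ei24, and 21.6 and 28.8 CPM for Sfn. Gadd45a, Dcxr and Pmaip1 had means between 8.90 and 18.9 CPM, and Polk, Zmat3, the death receptor Tnfrsf10b, the kinase Plk2 and Ephx1 between 2.59 and 7.27 CPM. The symbol 9030617O03Rik is not a row of the knockout table. Its later name Dglucy is, and was at 15.1, 24.5, 12 and 13.4 CPM in Il25 WT and 8.68, 11, 12.3 and 9.97 CPM in Il25 KO libraries (-0.67 ± 0.24 on the log2 scale, edgeR adjusted p = 0.243).

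Markers of several cell types also moved with Il25 genotype, where 1.57% of all genes tested were called higher and 0.204% lower. The 3 listed ILC3 markers summed to 3.48 to 12.5 CPM in Il25 WT and 26.3 to 35.9 CPM in Il25 KO libraries, and both tested ones, Il17a and Il22, rose. Of the 6 listed myeloid markers, summing to 212 to 276 and 283 to 382 CPM, 4 rose. Of the 13 listed ILC2 markers, 6 rose. The ILC2 sums overlapped, at 1901 to 2404 CPM in Il25 WT and 2132 to 2455 CPM in Il25 KO libraries. The 10 listed T cell and thymocyte markers summed to 3171 to 3949 CPM in Il25 WT and 2589 to 3025 CPM in Il25 KO libraries, without overlap, and 1 of 9 tested, Dntt, fell. Of the listed NK cell and ILC1 markers, which summed to 409 to 634 and 396 to 805 CPM, Gzmb rose and Gzma was not called. The part of these cells in the Cdkn1a difference was not tested.

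The levels of some p53 target genes differed between the irradiated wild-type groups of the 2 experiments, which differ in sex and were deposited and scaled separately, so no test was made. Cdkn1a was at 46.8 ± 8.32 CPM (SD, n = 3) in females and 381 ± 33.2 CPM (n = 4) in males. Ccng1 was at 88.6 ± 24.5 and 26.1 ± 3.15 CPM, and Trp53inp1 at 42.7 ± 16.5 and 6.87 ± 2.88 CPM. Bax, at 271 ± 75.8 and 281 ± 38.0 CPM, and Phlda3, at 21.8 ± 5.39 and 18.6 ± 6.27 CPM, differed by less than 1 SD.

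Genes that control p53 were examined beside its targets. Trp53, which encodes p53, was at 72.9, 71.6 and 169 CPM in untreated, 212, 115 and 305 CPM in irradiated, 117, 127 and 210 CPM in rIL-25, and 495, 162 and 180 CPM in both libraries. The groups overlapped, and the highest library was replicate 1 of both. Trp53 rose by 0.93 ± 0.28 on the log2 scale in the averaged comparison (edgeR adjusted p = 0.0277), and irradiation alone gave 0.99 ± 0.41 (adjusted p = 0.186). The averaged call was lost without untreated replicate 1 or 2, irradiated replicate 1 or 3, rIL-25 replicate 1 or 2, or both replicate 1 (adjusted p from 0.0515 to 0.0973, edgeR). Atm averaged 50.4 ± 1.45 CPM untreated, 19.6 ± 13.8 irradiated, 33.8 ± 8.59 after rIL-25 and 21 ± 12 after both, and changed by -1.08 ± 0.30 averaged (adjusted p = 0.0167), a call lost without irradiated replicate 1 or 3 or both replicate 3 (adjusted p up to 0.0519). Mdm4, the partner of Mdm2, had group means of 37.1 to 47.0 CPM and was called nowhere.

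Of 33 listed regulators and partners of p53, 22 were tested, and 1 rose (Trp53) and 3 fell (Atm, Atr and Ppp1r13b) in the averaged comparison. That is 18.2% of the 22, close to the 15.6% of all genes called, so nothing is read from that count. The kinase Atr changed by -1.08 ± 0.30 (edgeR adjusted p = 0.0158, or 0.0554 without both replicate 3) and Ppp1r13b, which steers p53 towards death genes, by -0.89 ± 0.21 (adjusted p = 0.00624). None of the 22 was called with irradiation alone or with rIL-25 alone. Of 35 listed genes of DNA damage signalling and repair, 32 were tested, and 0 rose and 3 fell in the averaged comparison. That is 9.38% of the 32, below the 15.6% of all genes called. The 3 were the end-joining ligase Lig4 (-0.96 ± 0.20, edgeR adjusted p = 0.00273), the ubiquitin ligase Rnf168 (-0.87 ± 0.20, adjusted p = 0.00581) and the mismatch repair gene Msh6 (-0.62 ± 0.20, adjusted p = 0.039). The Msh6 call held only without untreated replicate 1, irradiated replicate 2, rIL-25 replicate 3 or both replicate 2 (adjusted p up to 0.138 otherwise, edgeR), and those of Lig4, Rnf168 and Ppp1r13b held without any 1 library. In the knockout experiment 0 of 24 tested regulators and 0 of 34 tested repair genes were called by edgeR, where 1.77% of all genes were called. At an unadjusted p under 0.05 (edgeR) there were 0 and 5 of them, beside 11.7% of all genes. Nothing is read from these counts.

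A further list of 56 p53 targets had 39 in the treatment table and 26 tested. In the averaged comparison 5 rose and 3 fell, 30.8% of the 26 beside 15.6% of all genes, with a median log2 change of 0.03 beside -0.01 over all genes. This list was chosen with earlier results of these data known, and which groups carried its genes through the filter was not examined. Nothing is read from its shares here or in the knockout experiment. The survival gene Bcl2l1 rose from 33.0 ± 9.80 CPM untreated to 78.5 ± 16.9 CPM irradiated (1.24 ± 0.31 on the log2 scale, edgeR adjusted p = 0.0252), and the glutathione peroxidase Gpx1 fell from 1562 ± 74.2 to 959 ± 57.1 CPM (-0.70 ± 0.17, adjusted p = 0.0222). Bcl2l1 was lost without any 1 untreated library or irradiated replicate 1 or 3 (edgeR adjusted p up to 0.14), and Gpx1 without untreated replicate 3 or irradiated replicate 1 or 3 (up to 0.1). Lif, a cytokine gene, rose by 1.71 ± 0.37 (adjusted p = 0.00322) and Rbm38, an RNA-binding protein, by 0.58 ± 0.15 (adjusted p = 0.00935) averaged. In the knockout experiment 37 were tested and 2 called (5.41%, beside 1.77% of all genes). Ddit4, an mTOR inhibitor, rose from 47.1 ± 6.93 to 75.3 ± 6.94 CPM (0.67 ± 0.13, adjusted p = 0.0117, or 0.0524 without Il25 KO replicate 3) while Ccng2, a relative of Ccng1, fell from 15.5 ± 3.30 to 4.92 ± 2.07 CPM (-1.63 ± 0.27, adjusted p = 0.00323).

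Cell cycle genes that p53 lowers through p21 were tested as a list of 20, of which 19 were in the treatment table. None was called with irradiation alone. In the averaged comparison 3 of the 19 (15.8%) rose and 0 fell, a share close to the 15.6% of all genes called: Cdc20 (0.63 ± 0.13 on the log2 scale, edgeR adjusted p = 0.00218), Plk1 (0.67 ± 0.16, adjusted p = 0.00625) and Ccnb2 (0.39 ± 0.12, adjusted p = 0.0343). On top of rIL-25 the same 3 rose and Ccna2, Ccne2 and Kif23 fell, 6 of the 19 (31.6%) beside 15.3% of all genes. The list too was chosen with earlier results of these data known, so nothing is read from that share. Cdc20 and Plk1 held without any 1 library, and Ccnb2 was lost without untreated replicate 2 or 3, irradiated replicate 1 or 3, rIL-25 replicate 1 or 3, or both replicate 3 (edgeR adjusted p up to 0.115). Ccna2, the cyclin of DNA replication, had an interaction of -1.59 ± 0.37 (adjusted p = 0.0248), being at 180 ± 42.9 CPM untreated, 231 ± 44.7 irradiated, 259 ± 44.5 after rIL-25 and 111 ± 54.8 after both. That call was lost without untreated replicate 1 or 3, irradiated replicate 1, rIL-25 replicate 1, or both replicate 1 or 3 (edgeR adjusted p up to 0.115). Mki67, a marker of dividing cells, had group means of 247 to 280 CPM in the treatment experiment and 95.4 and 72.8 CPM in Il25 WT and Il25 KO libraries, and was called in no comparison.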

How the data were processed

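Sorted thymic ILC2 were profiled by bulk MARS-seq, which sequences the 3′ ends of polyadenylated RNA, per the labels' protocols. The authors deposited raw counts per gene in 1 table per experiment; the submitters' processing notes name bcl2fastq, cutadapt, STAR 2.5.2b, HTSeq, DESeq2 and mm10, and settings, annotation and strand use are not given in the sources used here. The knockout table is named as molecular identifier counts, and for the treatment table this is not stated. Dates had replaced 16 gene names in the treatment experiment (0.0788% of counts).

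Counts were analysed with edgeR 4.0.16 (R 4.3.3): filterByExpr by group with a minimum count of 10, TMM scaling, and the quasi-likelihood F-test with Benjamini-Hochberg adjustment over all genes, 1 fit for the 12 treatment libraries and 1 for the 8 knockout libraries. The SE is the log2 change divided by the square root of F. Members and lists were chosen with earlier results of these data known. Library values are given for members called in any of the 8 comparisons and for Cdkn1a, Mdm2, Bax, Ccng1 and Fas; of the further lists, up to 4 called genes with the smallest p, and Trp53, Mdm4, Atm and Mki67, are named, in a selection of the comparisons. Zmat3, Gadd45a, Plk3, Aen and Dglucy were added after their values were seen. On simulated counts for irradiated against untreated (7482 genes), 38.0% of 2-fold and 82.0% of 4-fold changes were called, and 80.0% and 99.0% for the knockout comparison (8812 genes). Alternatives were RLE scaling, no filter or a minimum count of 30, the replicate number as a block, DESeq2 1.42.0, fits to only the 2 groups in question, limma voom 3.58.1 with sample weights, and each library left out. Promoter windows are from RefSeq (GRCm38.p6).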

Additional observations from a re-analysis of the deposited data

Results flagged for a closer look

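Ccng1 was picked out because its response to irradiation differed with and without rIL-25: the interaction was -1.89 on the log2 scale (SE 0.39, edgeR adjusted p = 0.0131), with opposite signs in the 2 settings. Ddb2 was picked out in the knockout experiment because 1 of the 4 Il25 WT libraries, replicate 1 at 50.9 CPM, stood apart from the other 3, at 45 to 45.9 CPM; the gap took 0.845 of the range. Of 62 groups of 4 examined (30 members and Dglucy in each genotype), 1 was picked out in this way, and chance picks out about 1 in 20.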

How the results depend on the processing

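The number of p53 target genes called was within 1.5 times that reported under most alternatives. The exceptions were both against untreated (6) with only the 2 groups compared, which gave 2; both against irradiated (1), which gave 2 with no filter or DESeq2 and 3 with limma voom; the averaged comparison (8), which gave 5 with a minimum count of 30, where 11 members were tested; the interaction (1), which gave 2 with limma voom; and Il25 KO against Il25 WT (1), which gave 0 with the replicate block (Cdkn1a adjusted p = 0.111). Where not stated, the cause was not tested. The replicate block moved no other count past 1.5 times, but it ended the call of 9030617O03Rik in both against untreated (adjusted p = 0.0503), as did DESeq2 (0.0847) and limma voom (0.102); limma voom also ended that of Bbc3 (0.0547). Same-numbered libraries correlated at -0.19 to 0.37 in the treatment and -0.20 to 0.25 in the knockout experiment, and 5 of 12 and 2 of 8 libraries correlated best with their own number, so the numbers were not taken to pair libraries. The 3 same-numbered irradiated and rIL-25 pairs did correlate over 0.1, at 0.12, 0.37 and 0.20. These 2 groups were not compared on their own, but they stand on opposite sides of the averaged comparison. With the replicate block its count stayed at 8.

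Leaving out 1 library gave 3 to 8 calls for irradiation alone, 0 for rIL-25 alone, 1 to 8 for both against untreated, 1 to 2 for both against irradiated, 1 to 6 for both against rIL-25, 7 to 10 averaged, 0 to 2 for the interaction and 0 to 1 for Il25 KO against Il25 WT. Without rIL-25 replicate 3, the library with high myeloid markers, the counts were 7, 0, 5, 1, 3, 8 and 1 in the first 7 of these. Of 28 calls of a member in a comparison, 11 held without any 1 library. The log2 change of Cdkn1a with irradiation alone (0.09) lay between -0.14 and 0.35 without 1 library and reversed to -0.14 without untreated replicate 2 and to -0.00 without irradiated replicate 1, with no call. Counts over all genes moved as widely, from 86 to 370 for irradiation alone (301 with every library) and from 29 to 347 for the interaction (155). Depth limits the low members: 1 to 19 counts a library lay behind Bbc3, Phlda3 and Zmat3.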
